A study of Homo sapiens with 6 samples.

Results

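The genes described are 52 named genes of epithelial junctions and of mesenchymal or matrix character, taken by symbol from a table of 58735 genes measured by RNA sequencing in RKO, an established line of poorly differentiated colon carcinoma. They were 31 epithelial genes (adherens junction, tight junction, desmosome, epithelial surface, simple keratins and epithelial regulators) and 21 mesenchymal genes (regulators, matrix proteins, cytoskeletal and surface markers, and the urokinase system), and all 52 were found. The 3 control libraries, called Vector, came from RKO cells labelled as negative control, and the 3 LOC_OE libraries came from RKO cells into which the full transcript of the long non-coding RNA LOC101927668 had been integrated by lentivirus under puromycin selection. All libraries share the RKO background and the culture medium, the replicates are described as biological, and whether each stable line was a pool or a clone is not given in the sources used here. The comparison asks which of these genes differed in RNA level when LOC101927668 was overexpressed.

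Epithelial cells are held together by adherens junctions, where cadherins bind catenins, by tight junctions, where claudins and occludin seal the gap between cells, and by desmosomes, which tie the keratin cytoskeleton to the membrane. In the epithelial to mesenchymal transition, repressors of the ZEB, SNAI and TWIST families switch off junction genes such as CDH1, while vimentin, fibronectin, other matrix proteins and matrix-degrading proteases such as urokinase are gained. Carcinoma lines often hold a mixture of both programmes.

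Expression was in FPKM, the fragments per kilobase of exon divided by a size of the library, and differences were tested by limma on log2(FPKM + 1), a scale that understates the changes of low genes. A gene was called differentially expressed at an adjusted p-value under 0.05 with a fold change of at least 1.5, among 16061 genes that reached 0.5 FPKM in 3 or more libraries. The libraries held between 15008842 and 18410231 reads on genes. The divisor worked out from the values was not this total, since the ratio of reads on genes to the divisor was 0.917 to 0.951 for the Vector libraries and 1.02 to 1.15 for the LOC_OE libraries. LOC101927668 (chromosome 7, 19918981 to 20140453 on hg38) was covered by 1, 1 and 0 reads across the Vector libraries and by 231, 270 and 276 across the LOC_OE libraries. LOC_OE replicate 1 stood apart, since its correlations with the other LOC_OE libraries were 0.9666 and 0.9624, against 0.982 between those and 0.9824 to 0.9833 among the Vector libraries. It was the LOC_OE library farthest from the others for 21 of the 27 tested genes of the 52 (77.8%), against 62.8% of all genes tested, and results that turn on it are given with and without it.

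In the Vector libraries genes of both programmes were expressed, while the defining cadherins of both had no read. CDH1, which encodes E-cadherin of the adherens junction, and CDH2, which encodes N-cadherin of mesenchymal and neural cells, had 0 reads in all 6 libraries, which allows a level of up to 0.0331 and 0.0412 FPKM respectively from 3 reads. A total of 15 of the 52 genes had 3 reads or fewer in every library, and 7 of them had no read at all (CDH1, CDH2, GRHL2, ZEB2, TWIST1, TWIST2 and TGFBI). None of the 73 ribosomal protein genes was listed at 0 in any library, which does not bear on zeros of genes near the floor. A further 10 genes had more than 3 reads in a library but stayed under the FPKM filter, which left 17 epithelial and 10 mesenchymal genes tested.

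Galectin-1 (LGALS1, 262 ± 12.6 FPKM, SD, n = 3) and the receptor tyrosine kinase AXL (128 ± 1.28) were the highest of the 52 in the Vector libraries. They were followed by the catenins CTNNA1 (42.5 ± 2.04) and CTNNB1 (34.0 ± 1.72), by the protease inhibitor SPINT1 (32.1 ± 1.46), by CTNND1 (28.4 ± 0.847) and by the urokinase receptor PLAUR (27.9 ± 1.21). The values of CTNNB1 and SPINT1 overlapped, as did those of CTNND1 and PLAUR, while the other neighbours down to PLAUR did not. Next came the desmosomal cadherin DSG2 (23.1 ± 0.951), the repressor ZEB1 (19.1 ± 2.47), which overlapped with the keratin KRT18 (18.8 ± 0.924), and then CD44 (17.3), LAMB1 (17.1) and PLAU (16.6), each of which overlapped with the next. At the lower end, VIM (3.82 ± 0.318) overlapped with CLDN3 (3.26 ± 0.61), and OVOL2 (1.19) and S100A4 (0.61) closed the order.

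**Figure D1:**
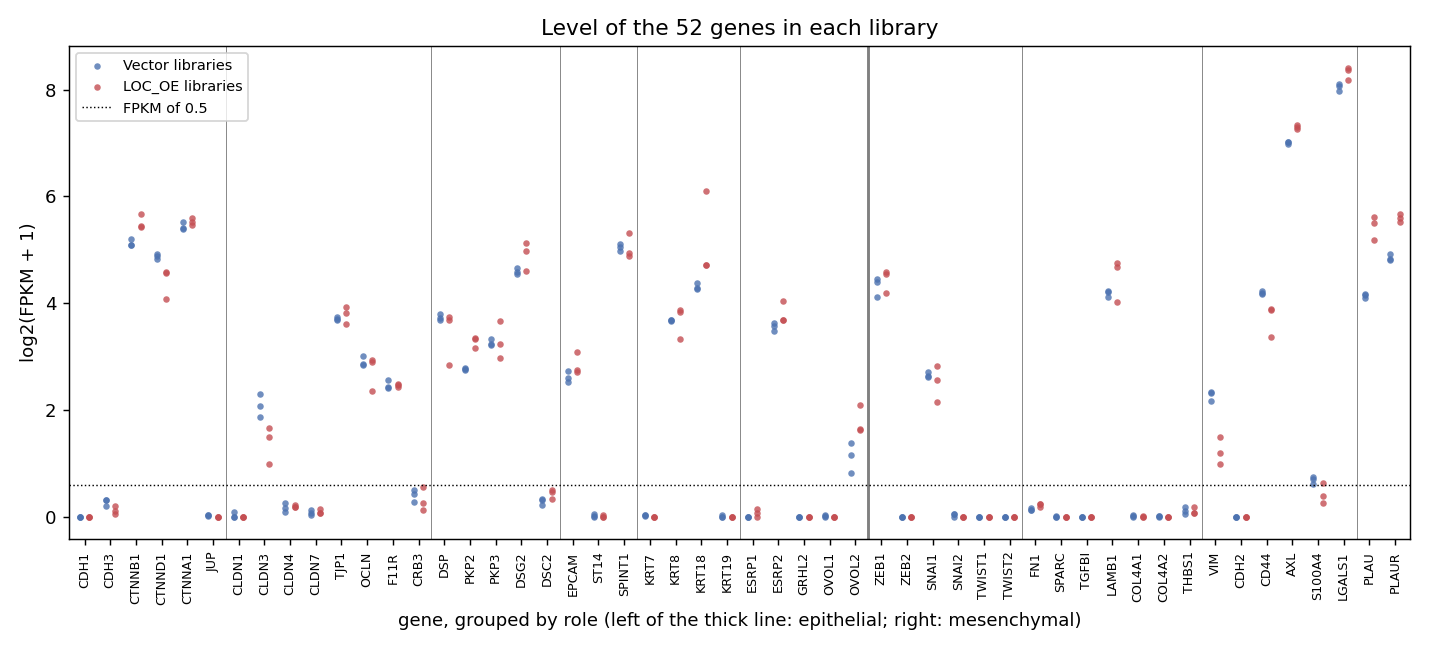
Level of each of the 52 genes on the log2(FPKM + 1) scale, with 3 Vector libraries (blue) and 3 LOC_OE libraries (red) as points, genes grouped by role and the dotted line at an FPKM of 0.5. CDH1, CDH2, TWIST1, TWIST2, ZEB2, GRHL2 and TGFBI lie at 0 in all 6 libraries, and LGALS1 and AXL lie highest.

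When LOC_OE was compared with Vector, the urokinase gene PLAU and its receptor gene PLAUR rose and VIM, the gene of vimentin, fell. These were the 3 called genes among the 27 tested, all of them on the mesenchymal side. Across all tested genes the same rule called 10.2%, with 743 (4.63%) higher and 896 (5.58%) lower, so with all libraries 3 of 27 was near the background. Leaving out 1 Vector library lowered the share of all genes to 4.18% (replicate 1), 2.31% (replicate 2) and 2.95% (replicate 3), with 3, 3 and 2 of the 27 called. Without 1 LOC_OE library the share was 8.11% to 10.4%, with 3 of the 27 called each time. No epithelial gene was called by limma, while 3 were higher and 2 lower at an unadjusted p under 0.05 (beside 19.4% and 17.1% of all tested genes). limma voom on recovered reads called 1 higher and 1 lower, beside 4.87% and 8.0% of the 21852 genes in that fit. At an adjusted p under 0.05 without the fold change threshold, 6 of the 27 passed (20.4% of all tested genes), 5 as higher (CTNNB1, PKP2, AXL, PLAU and PLAUR, beside 10.7%) and VIM as lower (beside 9.74%).

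The groups did not overlap for 13 of the 27 genes, 9 in the higher direction and 4 in the lower, beside 45.3%, 24.4% and 20.9% of all tested genes. The median log2 fold change was 0.07 for the 17 epithelial genes and 0.19 for the 10 mesenchymal genes, beside 0.02 for all genes. The scale mattered here, since the LOC_OE libraries had larger sums of FPKM. With an equal sum of FPKM in every library, the calls over all genes split into 261 higher and 1787 lower, and the median of all genes moved to -0.18. The epithelial median was then -0.18 and the mesenchymal median -0.06, and with quantile normalization they were -0.02 and -0.03, so neither group is given a direction.

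**Figure D2:**
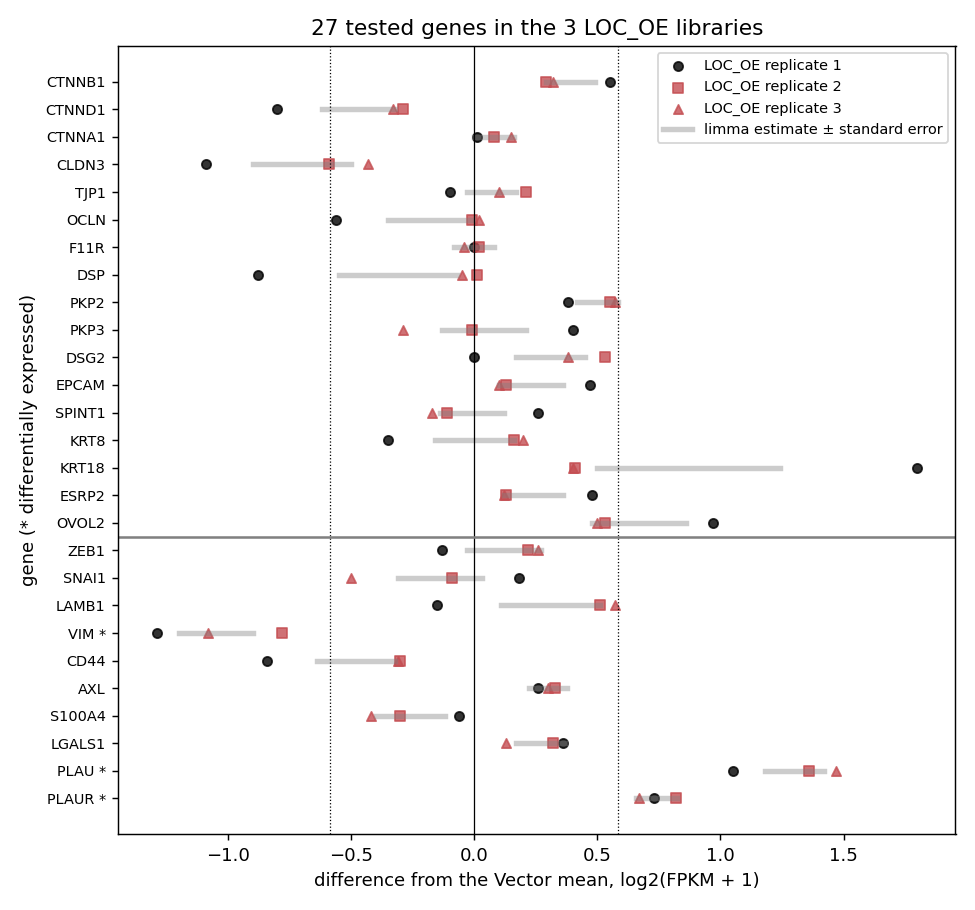
Difference of each LOC_OE library from the Vector mean on the log2(FPKM + 1) scale for the 27 tested genes, epithelial above and mesenchymal below the grey line, with the grey bar as the limma estimate ± SE and dotted lines at a fold change of 1.5. VIM, PLAU and PLAUR, marked by a star, lie beyond a dotted line in all 3 libraries, and for KRT18, DSP, CTNND1 and CD44 replicate 1 (black circles) lies far from the other LOC_OE libraries.

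PLAU encodes the secreted protease that turns plasminogen into plasmin. The gene (chromosome 10, 73909177 to 73917497, plus strand, hg38) had 16.7, 17.0 and 16.0 FPKM in the Vector libraries and 35.5, 44.2 and 47.6 in the LOC_OE libraries. Every LOC_OE library was above every Vector library. The mean rose 2.56-fold, from 16.6 ± 0.554 to 42.4 ± 6.25 FPKM (log2 fold change 1.3 ± 0.12, SE, adjusted p = 0.00397), and PLAU was called in all 6 fits that left out a library (1.21 to 1.42). C10orf55 lies on the opposite strand, at 0.271 to 0.67 FPKM, and the strand used in counting is not given in the sources used here, so reads of both genes cannot be told apart.

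PLAUR encodes the receptor that holds urokinase at the cell surface. It (chromosome 19, 43646095 to 43670547, minus strand) had 29.3, 27.1 and 27.4 FPKM in the Vector libraries and 47.0, 50.1 and 45.0 in the LOC_OE libraries, and the groups did not overlap. Its mean rose 1.70-fold, from 27.9 ± 1.21 to 47.4 ± 2.6 FPKM (log2 fold change 0.74 ± 0.082, adjusted p = 0.00569), and it was called in all 6 fits without a library. The change was under 1.5-fold when FPKM were rescaled to the same sum (0.49, adjusted p = 0.0136) or quantile normalized (0.50, adjusted p = 0.0222). On the first of these scales it lay 0.66 above the median of all genes.

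VIM encodes the intermediate filament protein of mesenchymal cells. It (chromosome 10, 17228259 to 17237593, plus strand) had 4.02, 3.46 and 3.99 FPKM in the Vector libraries and 0.969, 1.80 and 1.28 in the LOC_OE libraries, and every LOC_OE library was below every Vector library. The mean was 3.82 ± 0.318 in Vector and 1.35 ± 0.421 FPKM in LOC_OE, 2.83-fold lower (log2 fold change -1.05 ± 0.15, adjusted p = 0.00877). VIM was called in 5 of 6 fits without a library, and without Vector replicate 3 its adjusted p was 0.0519 at -1.02. VIM-AS1, on the opposite strand, had 5.94, 6.27 and 5.99 FPKM in the Vector libraries and 1.47, 5.01 and 2.94 in the LOC_OE libraries, and the part of its reads in the VIM value was not tested.

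**Figure D3:**
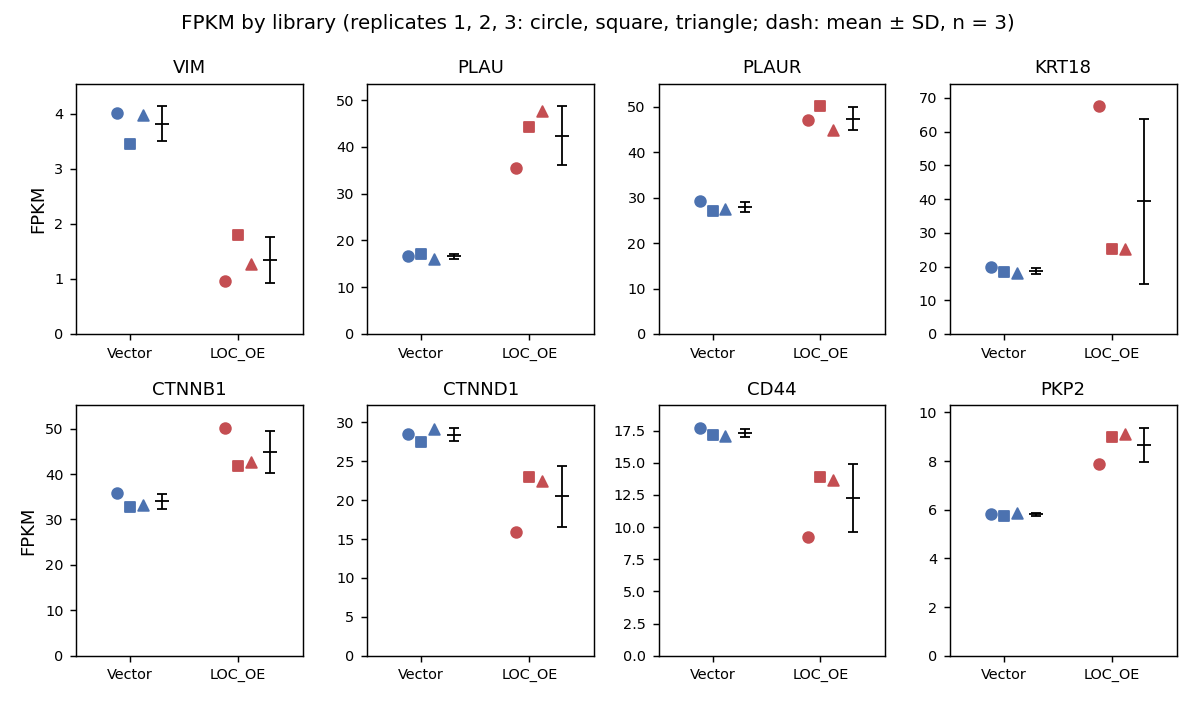
FPKM by library for VIM, PLAU, PLAUR, KRT18, CTNNB1, CTNND1, CD44 and PKP2, with Vector in blue, LOC_OE in red, replicates 1 to 3 as circle, square and triangle, and the dash with bars as mean ± SD of 3 libraries. PLAU and PLAUR lie higher and VIM lower in all 3 LOC_OE libraries, and LOC_OE replicate 1 (67.5 FPKM) lies far above the other libraries for KRT18.

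The upstream sequences of PLAU, PLAUR and VIM are shown since these were the called genes. A promoter window from RefSeq on GRCh38.p14 was found for 32 of the 52 genes. The 250 bases before the RefSeq start are printed 5′ to 3′ on the strand of the gene, with matches to the searched motifs in capitals. This start differs from the outer gene limits of GENCODE given above, and the stretches of PLAU and PLAUR lie inside those limits. The motifs, read on both strands, were the E-box letters of ZEB and SNAI repressors (CAGGTG or CACCTG), the AP-1 letters (TGANTCA) and the GC box (GGGCGG or CCGCCC).
PLAU, chr10:73910360-73910609, plus strand: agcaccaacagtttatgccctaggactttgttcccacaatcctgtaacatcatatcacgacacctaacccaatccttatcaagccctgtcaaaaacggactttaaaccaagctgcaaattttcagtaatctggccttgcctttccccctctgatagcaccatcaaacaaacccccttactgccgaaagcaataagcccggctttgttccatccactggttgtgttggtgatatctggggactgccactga
PLAUR, chr19:43670170-43670419, minus strand: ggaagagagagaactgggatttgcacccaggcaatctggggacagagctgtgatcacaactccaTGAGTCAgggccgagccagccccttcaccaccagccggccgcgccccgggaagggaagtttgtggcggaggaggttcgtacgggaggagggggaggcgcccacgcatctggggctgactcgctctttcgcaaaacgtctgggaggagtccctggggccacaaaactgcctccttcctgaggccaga
VIM, chr10:17227991-17228240, plus strand: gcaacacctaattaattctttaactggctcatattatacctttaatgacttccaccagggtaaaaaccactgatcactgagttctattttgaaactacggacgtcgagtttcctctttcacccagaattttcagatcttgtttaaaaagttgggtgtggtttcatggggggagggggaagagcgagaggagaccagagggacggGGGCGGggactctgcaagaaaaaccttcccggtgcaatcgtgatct

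PLAUR held 1 AP-1 match, 186 bases before the start, and VIM held 1 GC box match, 46 bases before the start. PLAU held no match in a window of 300 bases (250 before and 50 after the start). Over such windows the E-box letters were in 10 of the 32 genes (31.2%), against 19.8% of 14896 windows of protein-coding genes and 20.6% of 27305 windows of all genes. They were in 8 of the 17 tested genes with a window (CLDN3, TJP1, OCLN, DSP, DSG2, ZEB1, AXL and S100A4). Of the genes under the filter, they were in 0 of 7 at 3 reads or fewer in every library and in 2 of 8 others. The 7 were JUP and the mesenchymal genes ZEB2, TWIST2, SPARC, TGFBI, COL4A2 and CDH2. CDH1, GRHL2, KRT7, KRT19, OVOL1 and ST14 had no window. Shares over all expressed or all silent genes were not worked out, so a link of motif and level was not tested. The AP-1 letters were in 3 of 32 (9.38%, against 5.78% of protein-coding and 7.76% of all windows), and the GC box was in 25 of 32 (78.1%, against 59.5% and 44.6%). A match describes letters only.

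Of the adherens junction genes 3 catenins were tested and none was called. Beta-catenin (CTNNB1), which links cadherins to the cytoskeleton and carries the Wnt signal, had 35.9, 32.8 and 33.2 FPKM in Vector and 50.1, 41.7 and 42.6 in LOC_OE. The groups did not overlap (log2 fold change 0.39 ± 0.099, adjusted p = 0.04). The adjusted p of CTNNB1 was 0.01 without LOC_OE replicate 1, 0.0681 to 0.155 without any other single library and 0.172 when FPKM were rescaled to the same sum. p120-catenin (CTNND1), which stabilizes cadherins at the membrane, had 28.5, 27.5 and 29.2 FPKM in Vector and 15.9, 23.0 and 22.5 in LOC_OE. All LOC_OE libraries were lower and replicate 1 was the lowest, with an estimate of -0.47 ± 0.15 (adjusted p = 0.0653) and, without that library, of -0.31 (adjusted p = 0.00562). Alpha-catenin (CTNNA1), which anchors the complex to actin, differed by 0.08 ± 0.081 (adjusted p = 0.521). P-cadherin (CDH3) stayed under the filter, with 29, 28 and 17 reads for Vector against 3, 14 and 7 for LOC_OE, and plakoglobin (JUP) had at most 2 reads.

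Among tight junction genes, claudin-3 (CLDN3) had 3.22, 2.66 and 3.88 FPKM in Vector and 0.981, 1.81 and 2.14 in LOC_OE, without overlap. Its estimate was -0.70 ± 0.20 (adjusted p = 0.0514), just outside the threshold, and it was called with a mean FPKM of at least 1 as the filter, with the same sum of FPKM and with voom. The scaffold gene TJP1 (0.07, adjusted p = 0.642), occludin (OCLN, -0.18, adjusted p = 0.475) and the adhesion molecule F11R (adjusted p = 0.972) did not pass. CLDN1, CLDN4, CLDN7 and the polarity gene CRB3 stayed under the filter, with at most 17 reads in any library.

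None of the 4 tested desmosome genes was called. Plakophilin-2 (PKP2), which joins desmosomal cadherins to desmoplakin, had 5.83, 5.74 and 5.85 FPKM in Vector and 7.87, 9.00 and 9.12 in LOC_OE, and the groups were separate. Its estimate of 0.50 ± 0.084 (adjusted p = 0.0131) was under 1.5-fold, and the adjusted p was 0.0607 to 0.0741 without a Vector library. The estimate was 0.27 (adjusted p = 0.153) with the same sum of FPKM and 0.47 (adjusted p = 0.0139) with quantile normalization. Desmoplakin (DSP), the link to keratin, had 12.2, 11.8 and 12.8 FPKM in Vector and 6.19, 12.3 and 11.8 in LOC_OE. The low value was that of LOC_OE replicate 1, and the estimate was -0.31 with all libraries and -0.02 without it. DSG2 had 23.0, 22.3 and 24.2 FPKM in Vector and 23.1, 33.9 and 30.5 in LOC_OE. Replicate 1 lay within the Vector range and the other LOC_OE libraries above it, with an estimate of 0.31 (adjusted p = 0.179) and, without replicate 1, of 0.46 (adjusted p = 0.00452). PKP3 differed by 0.04 ± 0.17 (adjusted p = 0.904), and DSC2 stayed under the filter with 37 to 74 reads.

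Of the epithelial surface genes, EPCAM, an adhesion protein of epithelial cells, had 5.01, 5.60 and 4.76 FPKM in Vector and 7.49, 5.69 and 5.54 in LOC_OE (0.23 ± 0.13, adjusted p = 0.23), and the groups overlapped. SPINT1, an inhibitor of membrane serine proteases, differed by -0.01 ± 0.13 (adjusted p = 0.975), while the protease ST14 had at most 3 reads.

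The keratins KRT8 and KRT18 pair as the filament of simple epithelia. KRT18 had 19.8, 18.4 and 18.1 FPKM in Vector and 67.5, 25.3 and 25.1 in LOC_OE, and KRT8 had 11.8, 11.7 and 11.9 against 9.02, 13.3 and 13.7. LOC_OE replicate 1 was the highest library for KRT18 and the lowest for KRT8. The KRT18 estimate was 0.87 ± 0.37 (adjusted p = 0.144) with all libraries and 0.41 (adjusted p = 0.00395) without that library, and that of KRT8 was 0.00 (adjusted p = 0.992) and 0.18 (adjusted p = 0.0296). These values are uncertain, since GENCODE names 50 pseudogenes of KRT8 and 67 of KRT18 that can share reads, and the annotated genes overlap on opposite strands. The pseudogenes of KRT8 held 196 to 277 recovered reads per library, against 994 to 1521 on KRT8. Those of KRT18 held 23 to 58, against 1083 to 3479 on KRT18. KRT7 and KRT19 had at most 2 reads.

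Of the epithelial regulators, the repressor OVOL2 had 1.59, 0.768 and 1.21 FPKM in Vector and 3.25, 2.12 and 2.07 in LOC_OE. Every LOC_OE library was higher, at an estimate of 0.67 ± 0.19 (adjusted p = 0.0541), just outside the threshold. OVOL2 was called with array weights, quantile normalization, the replicate block and voom, and it overlaps SNX5 and MGME1, with which it can share reads. The splicing regulator ESRP2 differed by 0.24 ± 0.12 (adjusted p = 0.196), and its relative ESRP1 had no read for Vector and 0, 4 and 7 for LOC_OE. GRHL2 had no read, and OVOL1 had at most 1.

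Of the 6 mesenchymal regulators only ZEB1 and SNAI1 passed the filter, and neither was called. ZEB1, a repressor of CDH1, had 16.2, 20.1 and 20.8 FPKM in Vector and 17.2, 22.2 and 22.9 in LOC_OE, and the groups overlapped (0.12 ± 0.15, adjusted p = 0.599). SNAI1, another repressor of CDH1, had an estimate of -0.14 ± 0.17 (adjusted p = 0.608), and SNAI2 had at most 2 reads. TWIST1 lies 801 kb from LOC101927668 on chromosome 7 and had no read in any library, the LOC_OE libraries included. The overexpressed transcript was integrated by lentivirus, so this distance does not describe the place of the insert.

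Of the 7 matrix protein genes only laminin beta-1 (LAMB1) passed the filter. It had 16.3, 17.5 and 17.6 FPKM in Vector and 15.3, 24.7 and 25.8 in LOC_OE, where replicate 1 lay below all Vector libraries and the others above them. Its estimate was 0.31 (adjusted p = 0.304) and, without LOC_OE replicate 1, 0.54 (adjusted p = 0.00185). Fibronectin (FN1), a matrix marker of mesenchymal cells, had 29, 29 and 38 reads for Vector against 50, 50 and 35 for LOC_OE, which was 0.0893 to 0.118 FPKM against 0.138 to 0.18, and it stayed under the filter. SPARC, COL4A2, COL4A1 and THBS1 had at most 1, 3, 6 and 22 reads in any library.

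Among the surface and cytoskeletal genes, CD44, a hyaluronan receptor, had 17.7, 17.2 and 17.1 FPKM in Vector and 9.23, 13.9 and 13.7 in LOC_OE, all lower than Vector. Its estimate was -0.48 ± 0.16 (adjusted p = 0.0723) and, without LOC_OE replicate 1, -0.31 (adjusted p = 0.00513). AXL had 128, 129 and 126 FPKM in Vector and 153, 161 and 157 in LOC_OE, again without overlap. Its estimate was 0.30 ± 0.077 (adjusted p = 0.0399), with an adjusted p of 0.00433 without LOC_OE replicate 1 and of 0.0869 to 0.155 without any other single library, and it was -0.03 with quantile normalization. LGALS1 had 266, 273 and 249 FPKM in Vector and 336, 327 and 287 in LOC_OE (0.27 ± 0.10, adjusted p = 0.11), and S100A4, a calcium-binding protein, had an estimate of -0.26 (adjusted p = 0.238).

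Without LOC_OE replicate 1, PLAU, PLAUR and VIM were again the called genes, beside 10.4% of all tested genes (4.56% higher and 5.84% lower). At an adjusted p under 0.05 without the fold change threshold, 5 epithelial genes were then higher (CTNNB1, DSG2, KRT8, KRT18 and PKP2) and 2 lower (CLDN3 and CTNND1), and 4 mesenchymal genes were higher (AXL, LAMB1, PLAU and PLAUR) and 2 lower (CD44 and VIM), beside 19.4% higher and 16.1% lower of all tested genes.

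Other genes of the same structures were counted in lists, beside 4.63% higher and 5.58% lower called over all tested genes. Of 32 other tight junction and polarity genes 17 were tested, and 1 fell, CLDN23, with 2.06, 1.86 and 1.91 FPKM in Vector and 1.09, 0.949 and 0.69 in LOC_OE (-0.63, adjusted p = 0.0164). Of 29 other adherens junction and desmosome genes 12 were tested, and 1 rose and 1 fell. The catenin-like gene CTNNAL1 had 25.0, 23.8 and 23.5 FPKM in Vector and 47.0, 38.1 and 36.3 in LOC_OE (0.72, adjusted p = 0.0116), and protocadherin 1 (PCDH1) had 3.16, 3.10 and 2.96 against 0.857, 1.44 and 1.44 (-0.87, adjusted p = 0.0104). The groups were separate for all 3 genes, and without a Vector library their adjusted p was 0.0522 to 0.0752. On the log2(FPKM + 1) scale, which understates changes of low genes, CLDN23 missed the fold change threshold without LOC_OE replicate 3 (-0.54). It also missed it with quantile normalization (-0.50), and its adjusted p was 0.0504 with no filter. With voom the log2 fold change of CLDN23 was -1.10 (adjusted p = 0.0142). CTNNAL1 was under 1.5-fold with quantile normalization (0.49) and with the same sum of FPKM (0.46). Of the keratin and intermediate filament genes 5 were tested, and none was called by limma. At an unadjusted p under 0.05, 1 of them was lower, and voom called 1 lower. Of the integrins and laminin receptors 15 were tested, and none was called by limma. At an unadjusted p under 0.05, 3 of these were higher and 2 lower, and voom called 1 higher. Over all tested genes, 19.4% were higher and 17.1% lower at an unadjusted p under 0.05. Voom called 4.87% higher and 8.0% lower of all genes in that fit. Under the FPKM filter, voom also called KRT15 lower (35, 59 and 40 reads for Vector against 1, 3 and 3 for LOC_OE, -3.81, adjusted p = 0.00425). The same held for KRT20 (6, 6 and 9 reads against 0, 0 and 0, -3.62, adjusted p = 0.0118) and ITGB4 (29, 43 and 32 against 5, 18 and 10, -1.50, adjusted p = 0.0426). JAM3 was called higher (17, 26 and 15 reads against 69, 53 and 36, 1.68, adjusted p = 0.0102). TJP3 (-1.45, adjusted p = 0.0216) and CDH4 (-0.93, adjusted p = 0.0425) were called lower. Over the whole tight junction and polarity list voom called 1 higher and 3 lower. Over the adherens junction and desmosome list it called 1 higher and 2 lower.

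Of 34 other matrix and basement membrane genes 9 were tested, and 3 fell and none rose. Over all tested genes the shares called were 5.58% lower and 4.63% higher. At an unadjusted p under 0.05, 4 of the 9 were lower and 0 higher, beside 17.1% and 19.4% of all tested genes. Voom called 4 of the 9 lower and 0 higher, and 6 lower over the whole list, beside 8.0% lower in that fit. LAMB3, a chain of laminin-332 in epithelial basement membranes, had 452, 457 and 434 FPKM in Vector and 155, 235 and 220 in LOC_OE, 2.20-fold lower (-1.16 ± 0.17, adjusted p = 0.00941). LAMA1, a laminin chain of early basement membranes, had 4.85, 4.96 and 5.20 against 0.649, 2.01 and 1.41 (-1.39, adjusted p = 0.0109). Both were lower in every LOC_OE library, and without a Vector library the adjusted p was 0.0498 to 0.0583 for LAMB3 and 0.0512 to 0.0606 for LAMA1. The third was the collagen gene COL6A1 (-0.74, adjusted p = 0.00767).

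Of 32 matrix enzymes and protease inhibitors 21 were tested, and 4 fell and none rose, beside 5.58% lower and 4.63% higher of all tested genes. At an unadjusted p under 0.05, 2 were higher and 5 lower, beside 19.4% and 17.1% of all tested genes. Voom called 0 higher and 5 lower, beside 4.87% and 8.0% of the genes in that fit. The collagenase MMP1 had 8.98, 7.22 and 8.02 FPKM in Vector and 0.951, 4.15 and 3.49 in LOC_OE (-1.35, adjusted p = 0.0427), and the membrane-bound MMP15 had 13.2, 13.3 and 12.3 against 4.51, 5.62 and 5.34 (-1.19, adjusted p = 0.00307). Both were lower in every LOC_OE library. MMP1 was called only without LOC_OE replicate 1 or 2 among the fits that left out a library (adjusted p 0.0608 to 0.13 in the others), and its adjusted p was 0.0963 with no filter, 0.0648 with a pseudocount of 0.1 and 0.0688 with the replicate block, while MMP15 was called in all 6.

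**Figure D4:**
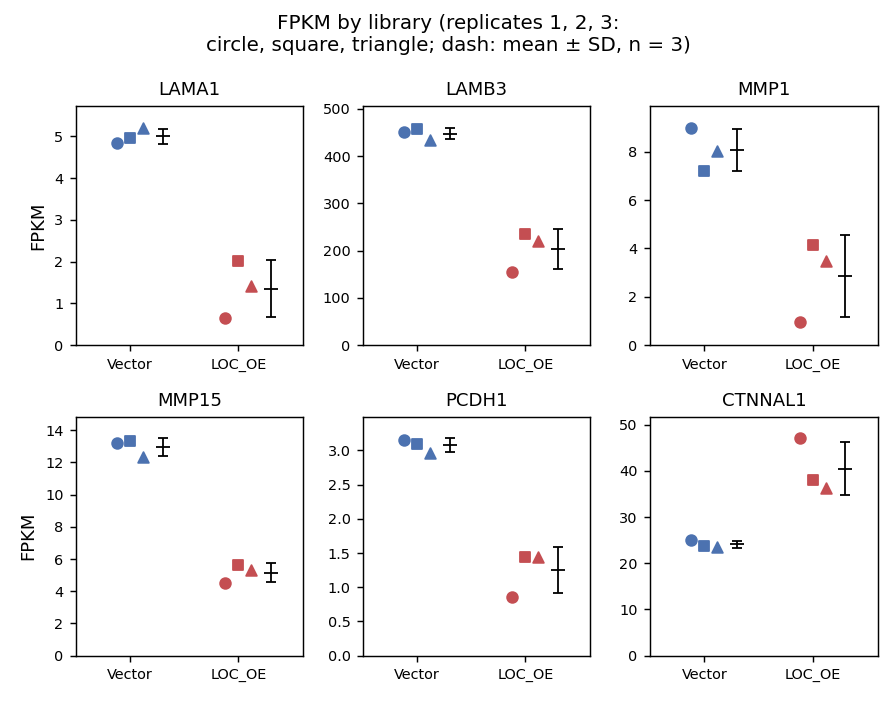
FPKM by library for LAMA1, LAMB3, MMP1, MMP15, PCDH1 and CTNNAL1, with Vector in blue, LOC_OE in red, replicates 1 to 3 as circle, square and triangle, and the dash with bars as mean ± SD of 3 libraries. The LOC_OE libraries lie below the Vector libraries for every gene shown but CTNNAL1, which lies above.

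Markers of the labelled and of other cell types were counted beside these results. Of 18 colorectal epithelial markers 15 had 3 reads or fewer in every library, and the only one tested was CDX2, an intestinal transcription factor, with 4.71, 3.97 and 4.34 FPKM in Vector and 5.56, 4.64 and 4.06 in LOC_OE. The summed level of this list was 4.29 to 5.11 FPKM in Vector and 4.12 to 5.61 in LOC_OE. Of 12 fibroblast markers 8 were at 3 reads or fewer, with COL1A2, COL3A1, DCN and POSTN at 0, and the summed level was 13.5 to 14.9 FPKM in Vector and 7.22 to 30.2 in LOC_OE. The high value came with TAGLN, at 29.1 FPKM in LOC_OE replicate 1 (-0.07, adjusted p = 0.938, and -0.76, adjusted p = 0.00107, without that library). The other tested fibroblast marker, smooth muscle actin (ACTA2), fell (-0.92, adjusted p = 0.00652). Of 12 endothelial and leukocyte markers 8 were at 3 reads or fewer, and their sum was 1.03 to 1.51 FPKM in Vector and 0.291 to 0.725 in LOC_OE. The part of these markers in the results was not tested. All libraries were labelled as RKO cells, and in bulk RNA fewer cells expressing a gene and less RNA per cell cannot be told apart.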

How the data were processed

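RNA of RKO cells was sequenced by the authors after library preparation with a NEBNext Ultra kit on an Illumina NovaSeq instrument. The submitters' processing notes name HISAT2 2.0.4, StringTie 1.3.0 and hg38, and the annotation is not given in the sources used here. FPKM of 6 libraries were deposited in 1 table, and 0 columns of values were left unused. Multiplied by merged exon length in GENCODE release 29, to which all 58735 identifiers matched, 100% of the values were whole multiples of 1 step per library (tolerance 0.01 reads), which gave the reads. StringTie gives estimated coverage rather than whole reads, so the counting tool behind the table is unsure and the reads are recovered values. A floor of 3 reads per library was used, and reads cover counting error only. Groups came from the sample titles.

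Differences were tested with limma-trend (limma 3.58.1 in R 4.3.3, pseudocount 1), and p-values were adjusted by Benjamini-Hochberg over all genes tested. Alternatives were a pseudocount of 0.1, no filter, a mean FPKM of at least 1, the same sum of FPKM, quantile normalization, no variance trend, array weights, voom on the reads of 21852 genes with at least 10, the replicate number as a block, no fold change threshold, unadjusted p-values and leaving out each library. The steps were run on simulated data with the same spread for all genes. These data held no outlying library and no shift in the sum of FPKM between groups, so the run does not bear on those features. The genes, the other lists and the tests were chosen with earlier results of these data known. Named were called genes of the 52, CDH1, CDH2, EPCAM, KRT8, KRT18, CTNNB1, ZEB1, VIM, FN1 and CD44, and the called genes with the largest increases and decreases (up to 2 each) of each other list. Other genes were named after their values were seen. Figures were drawn with matplotlib 3.10.9.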

Additional observations from a re-analysis of the deposited data

How the results depend on the processing

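Over all genes, the 743 higher and 896 lower calls moved past 1.5 times under the same sum of FPKM (261 and 1787). They also did so without a fold change threshold (1712 and 1565) and with voom (1749 lower). Without a Vector library they moved to 144 to 305 higher and 227 to 367 lower, with the lowest counts without Vector replicate 2. Without a LOC_OE library they stayed within 1.5 times (564 to 747 higher and 739 to 938 lower). The epithelial genes, with 0 called in either direction, had 1 higher with array weights, quantile normalization, the replicate block, voom and unadjusted p-values and 2 without a fold change threshold. They had 1 lower with a mean FPKM of at least 1, voom and unadjusted p-values and 2 with the same sum of FPKM. The mesenchymal genes had 1 higher with quantile normalization and with the same sum, 2 lower with the same sum, and 0 to 1 lower when a library was left out, with 0 without Vector replicate 3. The log2 fold change of KRT8 reversed to -0.07 with quantile normalization, and -0.24 with the same sum, and it ranged from -0.10 to 0.18 when a library was left out (-0.08 without LOC_OE replicate 2, -0.10 without LOC_OE replicate 3), and that of ZEB1 to -0.03 and -0.13 on those scales. The cause of these shifts was not tested. The replicate block called 696 higher and 739 lower over all genes. Same-numbered libraries deviated with correlations of 0.1107, -0.0338 and 0.1165, and replicate 2 did not correlate best with its own number, so the numbers were not taken to pair the libraries.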

Other observations

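Among 51 further regulators and markers of the epithelial to mesenchymal transition, 32 were tested, 2 rose and 3 fell. Over all tested genes the shares called were 4.63% higher and 5.58% lower. SOX9, a transcription factor of intestinal progenitors, had 1.00, 0.958 and 1.11 FPKM in Vector and 4.13, 3.66 and 5.03 in LOC_OE, at a log2 fold change of 1.38 ± 0.12 (limma, adjusted p = 0.00344). CCN1, a matrix-associated protein induced by YAP, had 93.2, 88.7 and 88.0 against 143, 140 and 131 (0.61, adjusted p = 0.00799). Both were higher in 3 of 3 LOC_OE libraries. SOX9 was called in all 6 fits without a library, and CCN1 was not called without Vector replicates 2 (adjusted p = 0.0598) and 3 (adjusted p = 0.0539), with quantile normalization (0.27) or with the same sum of FPKM (0.35).

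SNAI3, a relative of SNAI1, had 4.46, 4.07 and 3.32 FPKM in Vector and 0.938, 2.05 and 1.73 in LOC_OE (-0.96, adjusted p = 0.0197), and its adjusted p was 0.061 to 0.0867 without a Vector library. Smooth muscle actin (ACTA2) had 3.17, 3.35 and 2.53 against 1.13, 1.09 and 1.12 in LOC_OE (-0.92, adjusted p = 0.00652). The third was LGALS3, a galectin, with an estimate of -0.71 and an adjusted p of 0.00554. The median log2 fold change of the 32 genes was 0.03, beside 0.02 for all genes tested.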
